A study of Mus musculus with 9 samples.

Results

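The genes described here are 10 transcripts of hepatic bile acid metabolism: the sterol hydroxylases Cyp7a1, Cyp8b1, Cyp27a1 and Cyp7b1, the ring-modifying enzymes Hsd3b7 and Akr1d1, the conjugation enzymes Slc27a5 and Baat, and the regulators Nr1h4 (FXR) and Nr0b2 (SHP). They were chosen by name, as a pathway, from the 56748 genes of the count table, and all 10 were present and passed the filter on low counts. Poly(A) RNA of bulk liver was sequenced from male C57BL/6J mice, 28 weeks old at the end, fed a high-fat diet during their final 20 weeks. The 5 formoterol mice received the drug at 1 mg/kg and the 4 vehicle mice received DMSO, by daily intraperitoneal injection over the last 4 weeks of the diet. The table marks a group only by a suffix of its column names, so every direction below rests on the reading of HF as formoterol and HD as vehicle. Every library therefore came from a mouse on the high-fat diet with daily injections, and livers of mice on chow were not analysed here. Formoterol is a long-acting agonist of beta-adrenergic receptors, which signal through cyclic AMP.

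Hepatocytes convert cholesterol into bile acids by more than 1 route. In the classical route CYP7A1 adds the first hydroxyl group to the sterol ring and sets the rate, and CYP8B1 adds a further one that directs the product toward cholic acid. In the alternative route CYP27A1 first oxidizes the side chain in mitochondria and CYP7B1 then hydroxylates the ring. Both routes share the ring enzymes, and in the classical route CYP27A1 also acts, on the side chain after the ring changes. The side chain is then activated and joined to taurine or glycine. Bile acids activate the nuclear receptor FXR, which induces SHP in liver, a repressor of Cyp7a1 and Cyp8b1.

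Library totals ran from 12336665 to 20339665 counts. Over all 13042 genes tested, edgeR's quasi-likelihood test called 0 genes after Benjamini-Hochberg adjustment, which is 0% of them, and 1899 (14.6%) had an unadjusted p under 0.05, 1178 higher (9.03%) and 721 lower (5.53%) in formoterol livers. Hepatocyte markers dominated the check of the tissue, with a summed level over 12 genes of 90346 to 104680 CPM (counts normalised to library size with TMM factors) in the vehicle and 105307 to 149555 CPM in the formoterol libraries. All 5 formoterol sums lay above all 4 vehicle sums, by a narrow margin for M49, with library M48 the highest and M46 next. Alb alone had a mean of 66918 of the 96594 CPM in vehicle and 85075 of the 126604 CPM in formoterol libraries. The hepatocyte sums therefore mostly describe Alb. Sums for 7 cholangiocyte markers were 82.5 to 197 CPM in vehicle and 70.1 to 259 CPM in formoterol libraries, M49 being the highest. Spp1 alone had a mean of 128 of the 141 CPM in vehicle and 109 of the 120 CPM in formoterol libraries. These sums therefore mostly describe Spp1. In vehicle and formoterol libraries, the sums for 8 stellate cell markers were 132 to 217 CPM and 39.5 to 194 CPM. Those for 7 endothelial markers were 77.0 to 99.9998 CPM and 28.9 to 96.4 CPM, and those for 7 macrophage markers 72.1 to 121 CPM and 45.7 to 93.2 CPM. M46 was the lowest library for each of these last 3 lists. Of 6 enterocyte markers, Fabp6, Sis and Alpi had 0 counts in every library, Vil1 was below the filter, while Fabp2 and Slc10a2, the ileal bile acid carrier that is also made in cholangiocytes, were present. Mitochondrial genes took 16.4% (M46) to 38.6% (M50) of the counts, and the groups overlapped. Formoterol libraries M46, M48 and M47 had the lowest shares of all 9 libraries (16.4%, 18.1% and 22.5%), with vehicle library M60 next at 23.4%. In bulk tissue, fewer cells of a type and less RNA per cell cannot be told apart.

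Of the 10 transcripts, 8 had a higher fitted level in formoterol livers and Cyp8b1 and Hsd3b7 had a lower one, but none passed the edgeR test over all genes. At an unadjusted p under 0.05 there were 6 higher (Cyp7a1, Cyp27a1, Cyp7b1, Akr1d1, Slc27a5 and Baat) and 1 lower (Cyp8b1), against the 14.6% of all genes given above. The median log2 fold change, formoterol minus vehicle, was 0.41 over the 10 genes and −0.014 over all genes tested. None of the 10 had groups that were fully separated in CPM, where 2.45% of all genes were separated upward and 2.38% downward. DESeq2 called Akr1d1 only (5.82% of the 5429 genes to which it gave an adjusted p), and limma-voom, when libraries were weighted by quality, called Cyp27a1, Cyp7b1, Akr1d1 and Slc27a5 higher and Cyp8b1 lower (10.5% of all genes). The count of 7 at an unadjusted p under 0.05 was 4 without formoterol library M47 or M48 and 3 without vehicle library M56, M59 or M60.

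The 12 hepatocyte markers, some of them known to be high here when listed, went with this pattern: 9 were higher in mean and none passed edgeR over all genes. At an unadjusted p under 0.05 there were 6 higher and 0 lower (50% of the list, against 14.6% of all genes). Their mean log2 CPM was 10.9 ± 0.12 (SD, n = 4) in vehicle and 11.2 ± 0.24 (SD, n = 5) in formoterol libraries, a difference of 0.33. With libraries scaled to those markers, a choice made after the data were seen, the median over the 10 genes was 0.070, that over all genes tested was −0.32, and 2 members had an unadjusted p under 0.05. The share of all genes at that p on this scale is not given here, so the 2 cannot be set against it. On that scale 6 genes were higher and 4 lower, as Nr1h4 and Nr0b2 changed sign to −0.090 and −0.25, while Cyp8b1 went to −0.77, Cyp7b1 to 0.56 and Akr1d1 to 0.44. Cyp7a1 went to 0.17, Slc27a5 to 0.17, Cyp27a1 to 0.087 and Baat to 0.054. The part of hepatocyte content in the results below was not tested further.

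Levels can be compared between genes only per length, here as CPM per kb of the gene length in the table. In vehicle livers the highest means were those of Cyp8b1, at 146 ± 35.9 CPM per kb, and Slc27a5, at 139 ± 28.2 (SD, n = 4), whose ranges overlapped. Baat followed at 95.01 ± 2.17, then Akr1d1 at 65.6 ± 21.1, Nr1h4 at 57.96 ± 4.03 and Cyp27a1 at 57.0 ± 7.40, with overlapping ranges from Akr1d1 to Cyp27a1. Cyp7b1 (33.1 ± 8.30) and Nr0b2 (31.1 ± 5.45) were lower and overlapped each other. The rate-setting enzyme Cyp7a1 was the second lowest of the 10, at 16.0 ± 3.94 CPM per kb, and its range did not touch that of Nr0b2 above it. In formoterol livers Cyp8b1 ranked 4, at 107 ± 13.2 CPM per kb (SD, n = 5), below Slc27a5 (197 ± 35.5), Baat (127 ± 35.2) and Akr1d1 (113 ± 36.5). Every pair of neighbours in the formoterol order overlapped in range except Cyp7a1 and Hsd3b7 at the bottom.

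**Figure D1:**
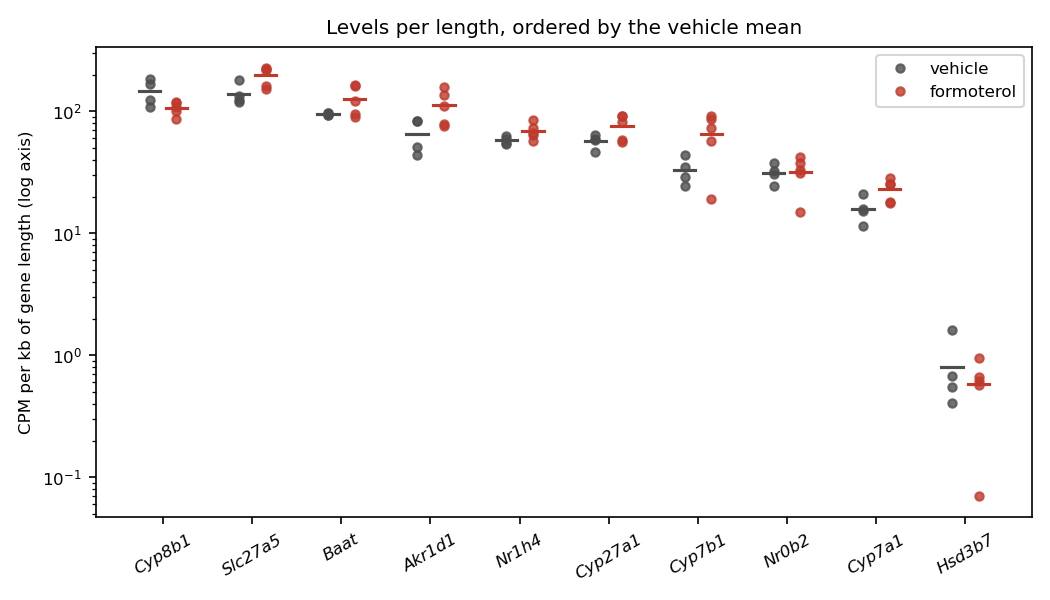
Level of each gene in CPM per kb of gene length (log axis), with 1 point per library, a bar at the group mean, vehicle in grey and formoterol in red. Cyp8b1 has the highest vehicle mean (146) and Cyp7a1 lies near the bottom (16.0), while Hsd3b7 stands apart below 2 CPM per kb in every library.

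Cyp7a1 (ENSMUSG00000028240; mm39 chromosome 4, 6265612 to 6275633, minus strand), which opens the classical route, had 63.8, 88.1, 66.5 and 48.04 CPM in vehicle libraries M56, M58, M59 and M60. The formoterol libraries M46, M47, M48, M49 and M50 had 118, 73.6, 106, 75.0 and 105 CPM. M46, M48 and M50 lay above every vehicle library, and M47 and M49 lay within the vehicle range, below vehicle library M58. The mean was 95.6 ± 20.2 CPM (SD, n = 5) against 66.6 ± 16.5 (SD, n = 4), a log2 fold change of 0.52 (SE 0.20; 95% interval 0.10 to 0.94; edgeR adjusted p = 0.242), or 1.44-fold. It stayed between 0.40 and 0.69 whichever 1 library was left out.

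Cyp8b1 (ENSMUSG00000050445; mm39 chromosome 9, 121743422 to 121745371, minus strand), the second enzyme particular to the classical route, had 326, 242, 360 and 210 CPM in vehicle libraries M56, M58, M59 and M60. In the formoterol libraries it had 169, 198, 212, 227 and 234 CPM, in the order M46 to M50. The vehicle libraries split into a higher pair, M56 and M59, and a lower pair, M58 and M60, and only M60 lay inside the formoterol range, M58 being just above it. Means were 208 ± 25.7 CPM (SD, n = 5) and 285 ± 70.0 (SD, n = 4), a log2 fold change of −0.45 (SE 0.18; 95% interval −0.83 to −0.074; edgeR adjusted p = 0.259). It was −0.32 without vehicle library M59 and −0.57 without M60. The interval of Cyp7a1 lay wholly above 0 and that of Cyp8b1 wholly below it, so the fitted directions of these enzymes of 1 route were opposite, though neither passed the test over all genes.

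RefSeq's promoter table (build GRCm38.p6, not the build of the counts) held 6 of the 10 genes, with 250 bases before and 50 after the start. The window of Cyp8b1 is shown because this gene went against the other hydroxylases, and that of Nr0b2 because SHP is the repressor through which FXR acts on Cyp7a1 and Cyp8b1. Capitals mark matches to 6 motifs searched on both strands: CAAAGTCCA (bound by HNF4 alpha, a known activator of Cyp8b1), TCAAGG (the core read by NR5A receptors such as LRH-1), GTCANTGAC (the centre of the inverted repeat bound by FXR), TGACGTCA and its first 5 letters TGACG (the cyclic AMP response element and its shorter core, which overlap), and TAGGTCA (read by the REV-ERB and ROR receptors).

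Cyp8b1, chr9:121916256-121916555, minus strand: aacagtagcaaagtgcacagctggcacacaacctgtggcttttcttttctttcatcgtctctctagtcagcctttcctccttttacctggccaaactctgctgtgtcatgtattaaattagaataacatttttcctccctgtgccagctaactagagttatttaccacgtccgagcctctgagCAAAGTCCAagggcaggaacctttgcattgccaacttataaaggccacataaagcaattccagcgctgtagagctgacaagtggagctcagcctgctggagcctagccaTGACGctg

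Nr0b2, chr4:133553126-133553425, plus strand: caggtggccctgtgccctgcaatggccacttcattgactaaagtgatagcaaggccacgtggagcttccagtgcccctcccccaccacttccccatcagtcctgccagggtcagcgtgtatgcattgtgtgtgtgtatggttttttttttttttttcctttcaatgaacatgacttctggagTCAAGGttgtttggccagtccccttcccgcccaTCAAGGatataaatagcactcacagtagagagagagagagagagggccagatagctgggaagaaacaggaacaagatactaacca

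In Cyp8b1 the first capitals are CAAAGTCCA, which begins 67 bases before the start, and the last are TGACG, which begins at base 43 after it. CAAAGTCCA was found in 0.475% and TGACG in 20.8% of the 32851 promoters of the table. In Nr0b2 both capital stretches are TCAAGG, 68 and 35 bases before the start, a motif in 14.4% of promoters that also matched the minus strand of Akr1d1, 213 bases before its start. The FXR motif (0.387% of promoters), TGACGTCA (1.79%) and TAGGTCA (2.61%) matched none of the 6 windows. A match describes letters in a window and was not related to any change here.

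Cyp27a1 (ENSMUSG00000026170; mm39 chromosome 1, 74752733 to 74777051, plus strand), the mitochondrial sterol hydroxylase that opens the alternative route, had 127, 139, 101 and 128 CPM in vehicle libraries M56, M58, M59 and M60. It had 121, 177, 199, 126 and 200.5 CPM in formoterol libraries M46 to M50. M47, M48 and M50 lay above every vehicle library, whereas M46 and M49 lay inside the vehicle range. The log2 fold change was 0.41 (SE 0.18; edgeR adjusted p = 0.320), with means of 165 ± 38.7 CPM (SD, n = 5) and 124 ± 16.1 (SD, n = 4).

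Cyp7b1 (ENSMUSG00000039519; mm39 chromosome 3, 18126114 to 18297502, minus strand), the oxysterol hydroxylase that follows CYP27A1, had the largest fitted difference of the 10. Vehicle libraries M56, M58, M59 and M60 had 94.6, 53.0, 76.3 and 63.2 CPM, and formoterol libraries M46 to M50 had 198, 188, 159, 41.4 and 124 CPM. In all, 4 formoterol libraries lay above every vehicle library and M49 lay below every one. Means were 142 ± 63.2 CPM (SD, n = 5) and 71.8 ± 18.0 (SD, n = 4), with a log2 fold change of 0.98 (SE 0.38; 95% interval 0.15 to 1.82; edgeR adjusted p = 0.269). Without M49 it was 1.21 and passed the edgeR test over all genes (adjusted p = 0.00434), in a comparison that called 702 genes. In each other fit with 1 library left out, Cyp7b1 did not pass and its log2 fold change lay between 0.82 and 1.15.

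**Figure D2:**
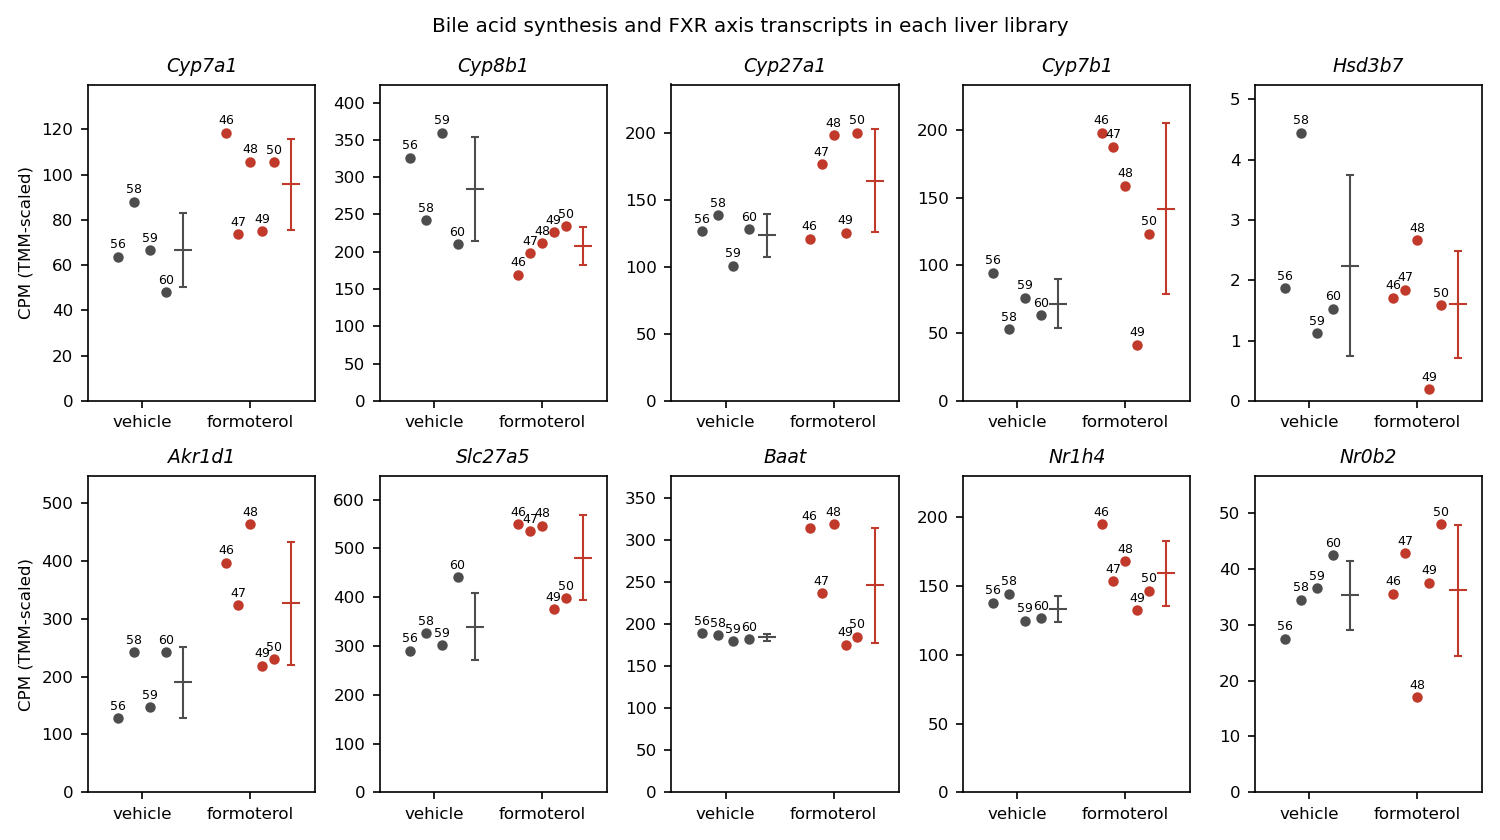
CPM of the 10 genes in each library, numbered by animal code, with vehicle in grey, formoterol in red, and bars for the mean ± SD. Formoterol library M49 lies below all vehicle libraries for Cyp7b1 (41.4 CPM), and the vehicle libraries are tightly grouped for Baat (180 to 189 CPM).

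The routes were compared within each library as the mean log2 CPM of Cyp7a1 and Cyp8b1 minus that of Cyp27a1 and Cyp7b1, which cancels library scaling. Cyp27a1 was counted on the alternative side although its enzyme serves both routes, so the contrast does not separate them cleanly. The vehicle values were 0.40, 0.77, 0.82 and 0.16 for M56, M58, M59 and M60. The formoterol values were −0.13, −0.60, −0.25, 0.85 and −0.001 for M46 to M50. In all, 4 formoterol libraries were below every vehicle library and M49 was above every one. The means were −0.025 ± 0.54 (SD, n = 5) and 0.53 ± 0.31 (SD, n = 4), a difference of −0.56, and −0.78 without M49, for which no p is given because the genes were chosen with results known. With TMM scaling the difference lay on the alternative side, whose mean was 7.15 ± 0.55 against 6.54 ± 0.16 log2 CPM, while the classical mean was 7.12 ± 0.15 against 7.07 ± 0.28. That split depends on the scaling, unlike the difference itself. Relative to the mean of the hepatocyte markers, the formoterol minus vehicle differences in log2 CPM were 0.20 for Cyp7a1 and −0.76 for Cyp8b1, against 0.058 for Cyp27a1 and 0.50 for Cyp7b1, so both sides then contributed.

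The classical mean joined opposite fitted directions of its genes. The ratio of Cyp8b1 to Cyp7a1, each in CPM per kb, was 11.0, 5.88, 11.6 and 9.37 in vehicle libraries M56, M58, M59 and M60. It was 3.06, 5.75, 4.29, 6.47 and 4.76 in formoterol libraries M46 to M50. Vehicle library M58 fell among the formoterol libraries and the other vehicle libraries lay above all of them. The log2 ratio differed by a mean of −0.96 in formoterol libraries, within −1.17 to −0.80 whichever 1 library was left out. This ratio was added after the opposite directions of Cyp7a1 and Cyp8b1 were seen. Its sign repeats those directions and is not a separate result. For the alternative route, the ratio of Cyp7b1 to Cyp27a1 per kb was 0.89 ± 0.50 against 0.60 ± 0.19, with M46 at 1.64 and M49 at 0.33, a difference within the spread of the formoterol libraries.

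**Figure D3:**
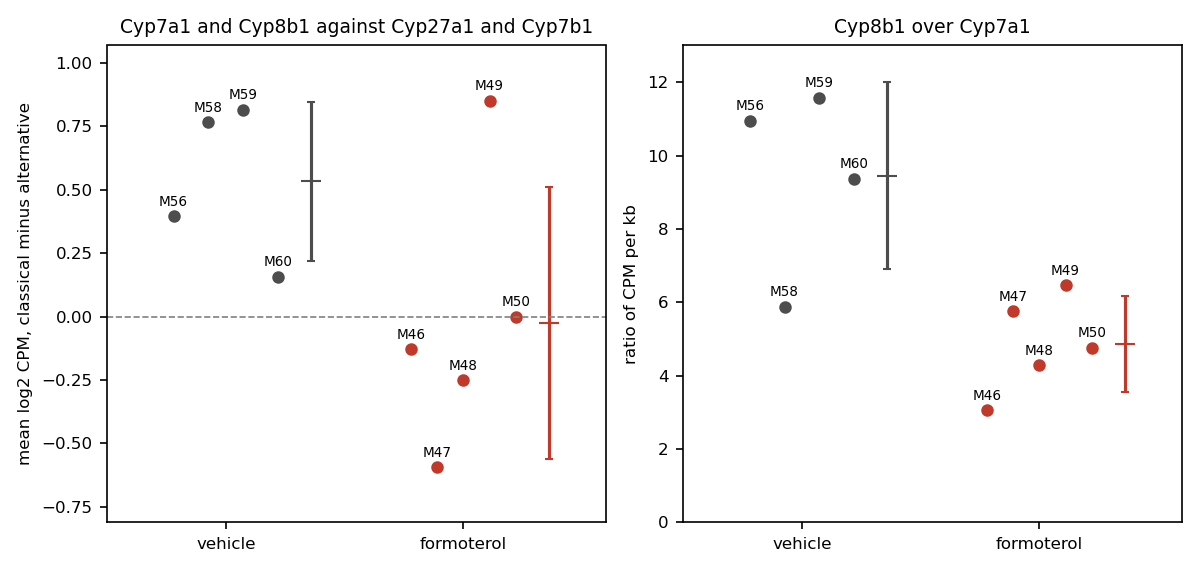
Left, mean log2 CPM of Cyp7a1 and Cyp8b1 minus that of Cyp27a1 and Cyp7b1 in each library; right, the ratio of Cyp8b1 to Cyp7a1 in CPM per kb. Points are libraries with their codes and bars are the mean ± SD. Library M49 (0.85) sits at the vehicle end on the left, and vehicle library M58 (5.88) sits among the formoterol libraries on the right.

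Akr1d1 (ENSMUSG00000038641; mm39 chromosome 6, 37507108 to 37545750, plus strand), the reductase that gives bile acids their bent ring junction, had 128, 242, 147 and 242 CPM in vehicle libraries M56, M58, M59 and M60. Formoterol libraries M46 to M50 had 397, 323, 463, 219 and 229 CPM. M46, M47 and M48 stood above every vehicle library, and M49 and M50 were below the upper vehicle pair, M58 and M60. The log2 fold change was 0.78 (SE 0.26; 95% interval 0.22 to 1.34; adjusted p = 0.213 by edgeR and 0.0378 by DESeq2), the smallest p of the 10. A processed pseudogene, Gm7463, lies inside the gene on the same strand with at most 63 counts per library, against 2198 to 7135 for Akr1d1.

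Hsd3b7 (ENSMUSG00000042289; mm39 chromosome 7, 127399776 to 127402974, plus strand), which oxidizes the ring hydroxyl group in both routes, had only 4 to 54 counts per library, or 1.12 to 4.44 CPM in vehicle and 0.19 to 2.66 CPM in formoterol libraries. The gene lies wholly inside Gm49388, a protein-coding gene of the same strand with 0 counts in every library. The counting rule for reads that fall in both is not given in the sources used here, so the level of Hsd3b7 is uncertain and may not stand for its transcript. Its log2 fold change was −0.48 (SE 0.57; 95% interval −1.70 to 0.75) and was 0.080 without vehicle library M58, so no direction is given.

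Slc27a5 (ENSMUSG00000030382; mm39 chromosome 7, 12722273 to 12732119, minus strand), the ligase that activates bile acids with coenzyme A, had 291, 327, 302 and 441 CPM in vehicle libraries M56, M58, M59 and M60. Formoterol libraries M46 to M50 had 549, 535, 546, 376 and 398 CPM. M46, M47 and M48 were nearly alike and above every vehicle library, and M49 and M50 were below vehicle library M60. The log2 fold change was 0.50 (SE 0.18; edgeR adjusted p = 0.227), or 1.41-fold.

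Baat (ENSMUSG00000039653; mm39 chromosome 4, 49489422 to 49506557, minus strand), which joins the activated bile acid to taurine or glycine, had 189, 187, 180 and 182 CPM in vehicle libraries M56, M58, M59 and M60. Formoterol libraries M46 to M50 had 314, 236, 319, 176 and 185 CPM. The vehicle coefficient of variation was 2.28%, the smallest of the 10 genes in either group, against 27.8% in formoterol livers, where M46, M47 and M48 were high and M49 and M50 matched the vehicle livers. Its log2 fold change was 0.42 (SE 0.19; edgeR adjusted p = 0.331). The trio M46, M47 and M48 was thus the highest of all 9 libraries for Akr1d1, Slc27a5, Baat and Cyp7b1, and also for Nr1h4, described next. The same trio had the 3 highest hepatocyte marker sums (140305, 126272 and 149555 CPM), to which Alb contributed most, and the lowest mitochondrial shares. Over all genes tested, the chi-square per degree of freedom between libraries was 38.3 to 56.8 within the trio. It was 79.4 to 222 between the trio and M49 or M50, so the split was not particular to these genes.

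Nr1h4 (ENSMUSG00000047638; mm39 chromosome 10, 89290096 to 89369447, minus strand), the bile acid receptor FXR, had 138, 144, 125 and 127 CPM in vehicle libraries M56, M58, M59 and M60. It had 195, 154, 168, 132 and 147 CPM in formoterol libraries M46 to M50. In all, 4 of these were above every vehicle library, by small margins for M50 and M47, and M49 was within the vehicle range. The log2 fold change was 0.25 (SE 0.15; 95% interval −0.058 to 0.57; edgeR adjusted p = 0.445), which turned to −0.090 with libraries scaled to hepatocyte markers.

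Nr0b2 (ENSMUSG00000037583; mm39 chromosome 4, 133280687 to 133283847, plus strand), the SHP repressor, had 27.5, 34.5, 36.5 and 42.4 CPM in vehicle libraries M56, M58, M59 and M60. Formoterol libraries M46 to M50 had 35.6, 42.7, 17.0, 37.5 and 47.9 CPM. M48 was the lowest of all 9 and M50 the highest. The log2 fold change was 0.037 (SE 0.24; edgeR adjusted p = 0.963), and its sign changed under limma-voom, upper-quartile, library-total, length-corrected or hepatocyte-marker scaling and without M47, M50 or M56. The 95% interval, −0.48 to 0.55, spans 0.72-fold to 1.46-fold.

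**Figure D4:**
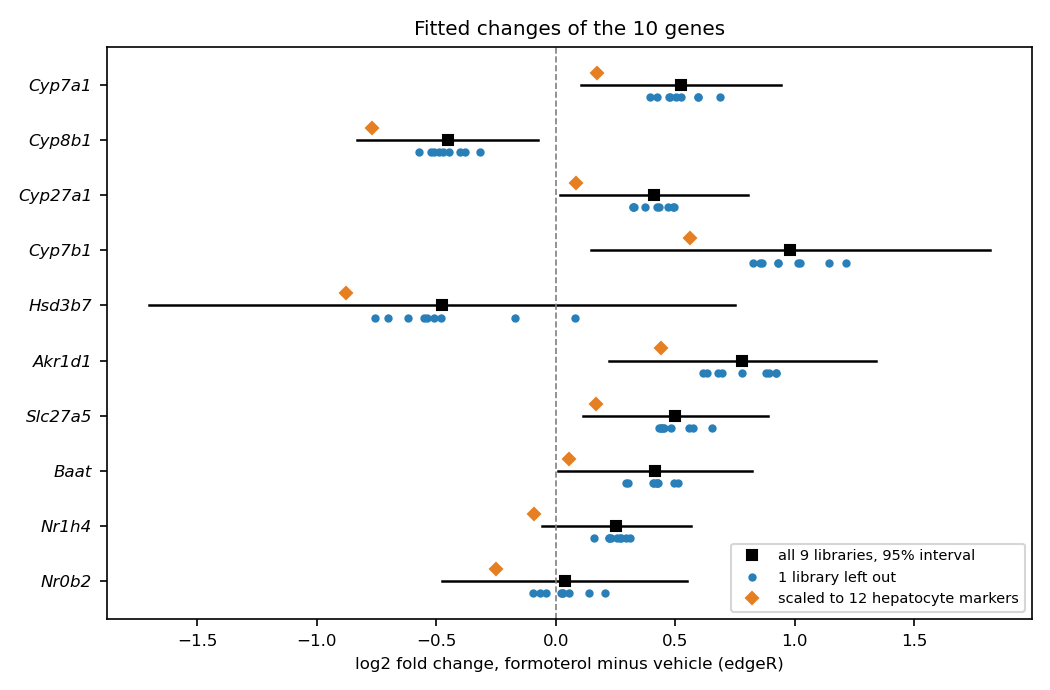
Log2 fold change of each gene, formoterol minus vehicle, by edgeR. Squares with lines are the estimate and 95% interval with all 9 libraries, blue points the fits with 1 library left out, and orange diamonds the fit scaled to 12 hepatocyte markers. Cyp8b1 (−0.45) has an interval below 0, Nr0b2 (0.037) is centred near 0, and the diamonds lie to the left of the squares for every gene. That shift is not particular to these genes, as the same scaling moved the median over all genes tested from −0.014 to −0.32.

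Other genes known to be induced by FXR agonists did not share 1 direction. Of 14 listed, Nr0b2 included, 13 were tested, 7 with a positive and 6 with a negative log2 fold change and a median of 0.037 whose sign depended on the scaling, and none passed edgeR over all genes. At an unadjusted p under 0.05, 3 were higher and 1 was lower (30.8%, against 14.6% of all genes). The higher ones were Fetub, a secreted fetuin known to be high here when the list was written (log2 fold change 1.06, SE 0.20), Cyp2c70, which makes muricholic acids in mice, and Abcb11, the canalicular bile salt export pump. The lower one was Fgf21, a hepatic hormone (3.09 ± 2.67 against 8.19 ± 0.56 CPM). Mafg, a repressor downstream of FXR, had 37.0 ± 11.8 CPM against 38.7 ± 6.38, and Slc51b, a basolateral exporter subunit, 1.74 ± 2.00 against 1.56 ± 0.40.

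Among 17 further enzymes and electron carriers of bile acid synthesis, 16 were tested, and none passed edgeR over all genes. At an unadjusted p under 0.05, 6 were higher (Fdx1, Cyp2c70, Fdxr, Por, Cyb5a and Scp2) and 1 was lower (Acnat2). Together these were 43.75% of the list, against 14.6% of all genes. The list's median log2 fold change was 0.14, and −0.018 with library totals or −0.21 with hepatocyte-marker scaling. Fdx1, the ferredoxin that passes electrons to mitochondrial P450 enzymes such as CYP27A1, had 41.5, 66.4, 55.3 and 63.0 CPM in vehicle libraries M56, M58, M59 and M60 and 141, 115, 119, 68.5 and 74.8 CPM in formoterol libraries M46 to M50. The groups did not overlap, although M49 and vehicle library M58 were close (log2 fold change 0.87, SE 0.22; adjusted p = 0.159 by edgeR and 0.00937 by DESeq2). Its reductase Fdxr had 27.5 ± 7.80 CPM (SD, n = 5) against 17.7 ± 3.36 (SD, n = 4), also without overlap. Por, which supplies microsomal P450 enzymes such as CYP7A1, CYP8B1 and CYP7B1, had 202 ± 70.9 CPM against 116 ± 39.4 and overlapped. Cyp2c70 had 123 to 254 CPM in formoterol and 67.1 to 133 CPM in vehicle libraries, with only M50 below vehicle library M60 (adjusted p = 0.172 by edgeR and 0.0118 by DESeq2). As a member of a family of similar genes, its counts could include reads of relatives. The sterol 25-hydroxylase gene Ch25h was below the filter, with 9 counts over all libraries.

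Of 14 transporters of bile acids and biliary lipids, 13 were tested and none passed edgeR over all genes. At an unadjusted p under 0.05, Abcb11 and Slco1a1 were higher and Abcc2 and Abcc4 lower (30.8%, against 14.6% of all genes). The list's median log2 fold change was 0.093, of either sign among the scalings. Abcb11 had 201, 205, 200.2 and 297 CPM in vehicle libraries M56, M58, M59 and M60 and 311, 333, 437, 252 and 301 CPM in formoterol libraries M46 to M50. Only M49 lay inside the vehicle range, which vehicle library M60 set (log2 fold change 0.53, SE 0.19; edgeR adjusted p = 0.2204). Abcc2, a canalicular exporter of conjugated anions, had 279 ± 67.8 CPM (SD, n = 5) against 427 ± 55.0 (SD, n = 4), with groups that met at 364.7 CPM in M50 and 365.1 in vehicle library M60 (log2 fold change −0.62, SE 0.18; adjusted p = 0.185 by edgeR and 0.0303 by DESeq2). Slco1a1, an organic anion uptake carrier with close paralogs, spanned 10.1 to 66.6 CPM in vehicle and 13.7 to 368 CPM in formoterol libraries. M49, the library lowest for Cyp7b1, was the lowest formoterol library for Slco1a1 as well. Slc10a1, the main sodium-coupled bile acid uptake carrier, had 274 ± 33.6 CPM against 288 ± 50.8, and Abcc4, a basolateral exporter, was rare at 0.46 ± 0.25 against 1.44 ± 0.57.

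**Figure D5:**
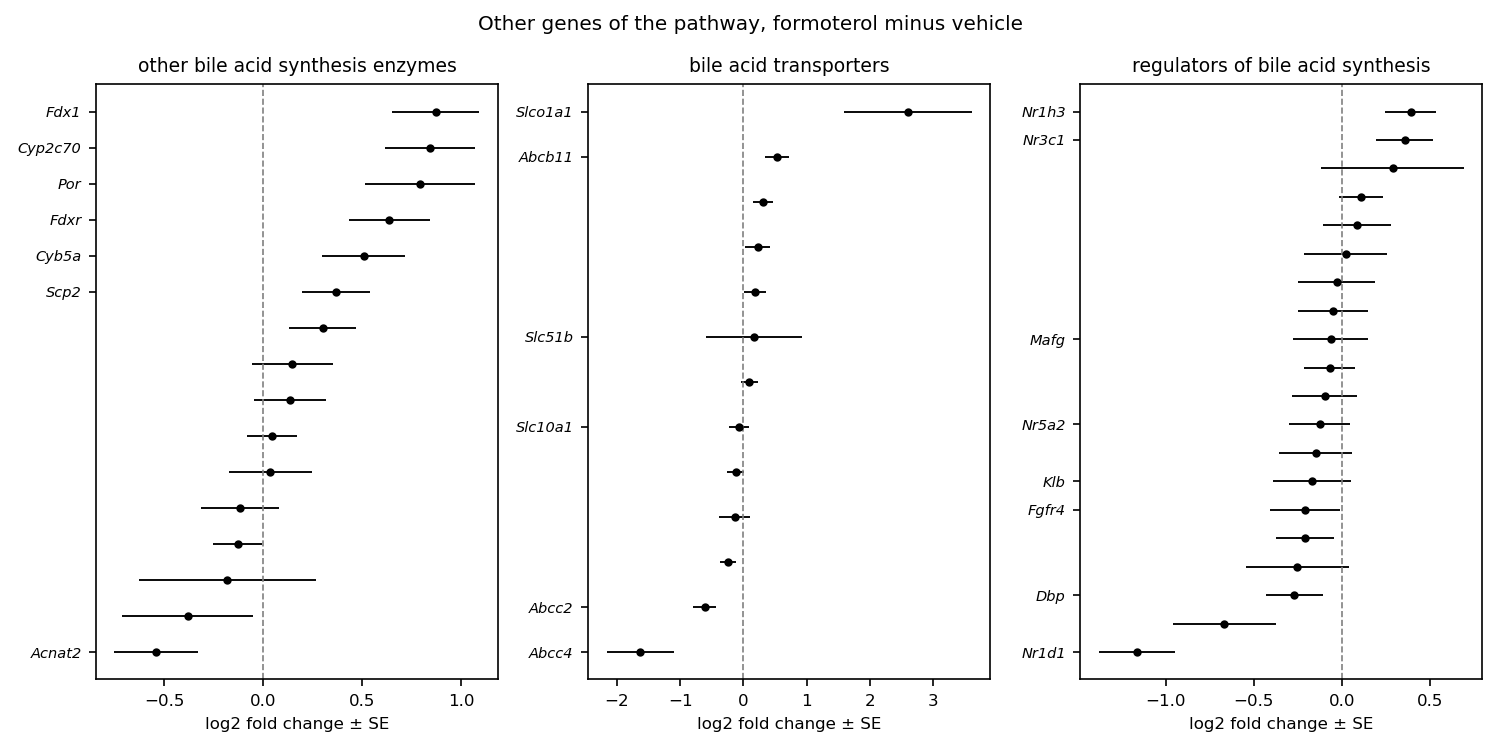
Log2 fold change ± SE (edgeR, formoterol minus vehicle) of the tested genes of 3 lists: further enzymes and electron carriers (16 genes), transporters (13) and regulators (20). Fdx1, Cyp2c70, Por and Fdxr lead the enzymes, Abcc2 and Abcc4 are at the bottom of the transporters, and Nr1d1 stands below the other regulators at −1.16. Only genes named in the text are labelled.

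Of 22 listed regulators of Cyp7a1 and Cyp8b1, 20 were tested and none was called by edgeR. The median log2 fold change was −0.084, and −0.24 with library totals or −0.39 with hepatocyte-marker scaling. At an unadjusted p under 0.05 were 4 of them (20.0%, against 14.6% of all genes), of which 2 were higher (Nr1h3, the oxysterol receptor LXR alpha, and Nr3c1, the glucocorticoid receptor) and 2 lower, among them Nr1d1, the clock repressor REV-ERB alpha. Nr5a2, which encodes the Cyp7a1 and Cyp8b1 activator LRH-1, had 28.6 ± 5.57 CPM against 31.2 ± 4.57. Fgfr4 and Klb, which form the liver receptor for the intestinal hormone FGF15, had 14.7 ± 1.83 against 17.0 ± 4.49 and 6.44 ± 1.37 against 7.25 ± 1.23 CPM, and the log2 fold changes were −0.21 (SE 0.20) and −0.17 (SE 0.22). Fgf15, made in the intestine, and Gpbar1, a membrane bile acid receptor, had 0 counts in every library, which allows up to 0.147 to 0.243 CPM per library.

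The transcript of Cyp7a1 is known to vary with the hour of day, and the hour of collection is not given in the sources used here. Nr1d1 had 57.5, 36.9, 43.6 and 47.9 CPM in vehicle libraries M56, M58, M59 and M60 and 12.5, 21.1, 16.3, 25.1 and 28.6 CPM in formoterol libraries M46 to M50, without overlap. Its log2 fold change was −1.16 (SE 0.22). The adjusted p was 0.151 by edgeR, 0.000358 by DESeq2 and 0.00368 by limma-voom with sample quality weights. Of 15 names of core clock genes, 13 genes were tested. Cry1 was higher and Nr1d1 and Ciart lower at an unadjusted p under 0.05 (23.1%, against 14.6% of all genes). Dbp, a clock output factor that activates Cyp7a1, had 65.9 ± 13.1 CPM against 79.5 ± 10.6 (log2 fold change −0.27, SE 0.16). The part of the clock in the values of Cyp7a1 was not tested. Among 13 names of genes that supply or handle sterol, 12 were tested, and none was called by edgeR. At an unadjusted p under 0.05, 0 were higher and 2 lower, among them Nceh1, a cholesteryl ester hydrolase gene. That share, 16.7%, was near the 14.6% of all genes.

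Across the 9 libraries, Akr1d1 and Slc27a5 ran together (Pearson r of log2 CPM 0.93, and 0.86 after removal of the group means), as did Baat and Nr1h4 (0.90 and 0.86). Cyp8b1 ran against Akr1d1 (−0.87 and −0.77) and Slc27a5 (−0.88 and −0.78). Nr0b2 and the genes it is known to repress were weakly related, with −0.25 and −0.31 for Cyp7a1 and −0.086 and −0.14 for Cyp8b1. These coefficients are descriptions over 9 libraries whose genes share scaling, were picked after all 45 pairs were seen, and carry no p. The part of hepatocyte content in these coefficients was not tested. Of 5938 protein-coding genes with a mean of at least 10 CPM, those with the pattern most like Cyp7a1 included Top1 (r = 0.936) and Yaf2 (r = 0.935). Those most like Cyp8b1 were Csad, Orc5 and Gnaq (0.950 to 0.965), and those most like Nr0b2 were Mfn2, Rxra and Actr1b (0.944 to 0.953). Library M48 was the lowest of all 9 for both Nr0b2 (17.0 CPM) and Rxra (72.6 CPM). Such genes were picked as the highest of 5938 correlations over 9 libraries, with group means not removed. They carry no p, and a shared function was not tested.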

How the data were processed

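The authors deposited whole-number read counts per Ensembl gene for 9 liver libraries, without normalization. Per the submitters' processing notes, HISAT2 2.0.5, the mm39 build and DESeq2 were used. The sources used here do not name the program that counted reads, whether it used strand, or the annotation, so reads of overlapping genes cannot be told apart. Gene length in bp, from the deposited table, was used for CPM per kb.

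Column names carry animal codes and a suffix. The suffix HF was read as formoterol and HD as vehicle, from its last letter and the group sizes of 5 and 4. Each library was treated as a separate animal, since the series counts its samples in mice. Were that wrong, p-values would reflect only technical spread. The chi-square per degree of freedom between libraries of the same group was at least 24.3, so no library was a copy of another of its group. Pairs across the groups were not compared in this way.

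Genes were kept by filterByExpr (minimum count 10, minimum total 15, about 0.60 CPM at the median library), which left 13042 of 56748 genes and at least 99.8% of each library's counts. Groups were compared by the quasi-likelihood test of edgeR 4.0.16 (R 4.3.3) with robust fitting, TMM scaling and Benjamini-Hochberg adjustment over all genes, at a threshold of 0.05. DESeq2 1.42.0, limma 3.58.1 (voom, with and without sample quality weights), other scalings and filters, and each library left out were the alternatives. Scaling to hepatocyte markers, the count of members at an unadjusted p under 0.05 and the Cyp8b1 to Cyp7a1 ratio were added after the data were seen. Log2 CPM values used a prior count of 2.

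The members and lists were chosen with earlier results of these data known, so no list has a p of its own. The rule names all members, from each pathway list up to 4 other tested genes with the smallest unadjusted edgeR p, a few genes that a sentence on a member turns on (Cyp2c70, Abcb11, Slc10a1, Nr5a2, Fgfr4, Klb, Nr1d1 and Dbp), and for Cyp7a1, Cyp8b1 and Nr0b2 the 3 protein-coding genes most correlated with each. Mafg, Slc51b, Cyb5a, Scp2, Acnat2, Ch25h, Fgf15 and Gpbar1 fall outside it and were named after their values were seen. A few genes that the rule would name are not reported here.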

Additional observations from a re-analysis of the deposited data

Results flagged for a closer look

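Of 66 groups of values examined (members, named list genes, the route difference and the Cyp8b1 to Cyp7a1 ratio, each in 4 vehicle or 5 formoterol libraries), 2 held a library far from the others of its group, where chance flags about 1 in 20. Abcb11, the bile salt export pump, had 297.1 CPM in vehicle library M60, while the other vehicle libraries lay between 200.2 and 204.6 CPM. Nr3c1, the glucocorticoid receptor, had 56.4 CPM in vehicle library M58, while the others lay between 46.2 and 46.6 CPM.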

How the results depend on the processing

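The count of all genes called by edgeR, 0 with 9 libraries, was 316 by DESeq2, 1374 by limma-voom with sample quality weights and 263 with no filter on low counts, and ran from 0 to 702 with 1 library left out (702 without M49, 4 without M60). The count of members called was 1 by DESeq2 and 5 by limma-voom with sample quality weights, and 0 to 1 with 1 library left out. The count of members at an unadjusted p under 0.05, 7 with all libraries, was 2 with library totals and 2 with scaling to hepatocyte markers, and ran from 3 to 8 with 1 library left out. The shares of all genes at that p in these alternatives are not given here. The log2 fold change of Nr0b2 became −0.028 by limma-voom, −0.0016 with upper-quartile factors, −0.12 with library totals, −0.16 with a gene length offset and −0.25 with hepatocyte markers, and ran from −0.094 to 0.21 with 1 library left out. That of Nr1h4 became −0.090 with hepatocyte markers, and that of Hsd3b7 ran from −0.76 to 0.080. The cause of these changes was not tested. Library totals and hepatocyte markers shifted the median of all genes to −0.16 and −0.32. The other 7 members kept their direction in all 21 alternatives, and the route difference ran from −0.78 to −0.42 over its 14. No paired analysis was possible because the table's columns carry no replicate numbers. Few counts limit Hsd3b7 and Abcc4, and for Hsd3b7 the overlap with Gm49388 also leaves the level uncertain.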
